A study of Mus musculus with 2 samples.

Results

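Liver sinusoidal endothelial cells were examined in the single-cell RNA library that carries the embryonic stage label E18.5. Members were chosen by measured values, the UMIs of named genes. A barcode was a member when it held at least 200 genes and 500 UMIs (unique molecular identifiers, 1 for each captured RNA molecule) with under 25% of UMIs from mitochondrial genes, and at least 3 UMIs summed over Stab2, Gpr182, Oit3 and Clec4g. It also had to hold under 5 UMIs of Rspo3, under 5 of C1qa, C1qb and C1qc together, and none of Cd79a, Cd3d, Cd3e or Cd3g. These limits were meant to keep out central vein endothelium, macrophages, B cells and T cells. The Rspo3 limit removed 145 barcodes that had reached the sum of 3, and whether these were vein or sinusoid was not tested. The rule found 655 cells among 9871 barcodes of the library and 19642 of the series. They were 13.9% of the 4721 barcodes past the quality limits (exact binomial 95% interval 12.9 to 14.9). The study set out to make tetraploid organs in mice. Each host blastocyst lacked Hhex, a homeobox gene required for liver formation, and was injected with 4N (tetraploid) embryonic stem cells that express tdTomato. Whole liver was then dissociated from the embryonic stage and from postnatal day 180, with 1 library each, and both libraries share the Hhex knockout host and the 4N cells. Strain, sex and the part of Hhex removed are not given in the sources used here, no diploid or uninjected liver was used here, and the gene tables hold 0 tdTomato features, so host and donor cells were not told apart.

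Sinusoidal endothelial cells line the capillaries of the liver. They carry open pores through which plasma reaches the hepatocytes, lack a continuous basement membrane, and clear waste macromolecules from blood through scavenger and lectin receptors followed by lysosomal breakdown. They also signal to hepatocytes by position: those near the central vein release Wnt ligands, those near the portal vein carry Notch ligands and ephrin B2, and Bmp2 and Bmp6 from the sinusoid control hepcidin and with it body iron.

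The members held 544 to 28210 UMIs each, with a median of 3078 UMIs, 1628 genes and 13.8% mitochondrial UMIs, and 2510756 UMIs in all. Another 496 barcodes met every other condition but had 25% or more mitochondrial UMIs. The libraries shared 28 barcodes, and 1 member's barcode was among them without being a member in the other library. Levels below are summed UMIs per 1000000 UMIs of the set (CPM) with an exact Poisson 95% interval, which covers counting error only, since cells of 1 library are not replicates and no test between libraries was possible. The rest of the library means its other barcodes past the quality limits, without the Rspo3-high and vessel endothelium described below. Among other cell types, macrophage markers summed to 92.4 CPM in the members against 2179 in the rest of the library (13 of 14 markers detected, Marco at 0). Hepatocyte markers summed to 546 against 1092 (18 of 19, Cyp2e1 at 0), B cell markers to 259 against 24005 (9 of 10) and bile duct markers to 609 against 1945 (9 of 9, with Spp1 alone at 416). Spp1 had 94.6% of its member UMIs in 10 cells, and 8 of 655 cells held 3 or more bile duct UMIs. A sum of at least 3 UMIs over the leukocyte genes Ptprc, Tyrobp, Cd52 and Srgn was found in 87 members.

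The same rule found 87 cells in the library labelled P180, 0.908% of its 9582 barcodes past the quality limits (0.728 to 1.12). Those cells had a median of 3715 UMIs, 505345 UMIs in all and 9.40% mitochondrial UMIs as a median. The contents of the libraries ran against their stage labels. In the library labelled P180, 6894 barcodes drew 25% or more of their UMIs from haemoglobin genes. Its sinusoidal cells held UMIs of fetal genes, Igf2bp3 and Hmga2 among them, that were near 0 in the members. All 87 of those cells also held 3 or more UMIs of erythroid markers, and the part of other cells' RNA in the fetal genes was not tested. The library labelled E18.5 held 520 T cells. The libraries are therefore named by their labels throughout, and no difference is read as a change with age. Haemoglobin genes made up 13.9% of UMIs in the 87 cells and 1.36% in the members. They were concentrated in 15 of the 87 cells, each with 5% or more haemoglobin UMIs and a median of 9732 UMIs, so results between libraries are also given for the 637 and 72 cells under 5%.

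Hhex itself, on chromosome 19 from 37434810 to 37440731 of the mm10 build on the plus strand, was found in cells of both libraries. It stood at 133 CPM in the members (119 to 148), with a UMI in 28.2% of cells, and 57.4 in the cells labelled P180 (38.4 to 82.4), with a UMI in 18.4%. The log2 ratio, labelled E18.5 over labelled P180, was 1.21 (0.66 to 1.81), and 1.02 in cells under 5% haemoglobin UMIs. T cells of the library labelled E18.5, which should lack it, held a UMI in 5.58% of 520 cells at a median of 5819 UMIs. A 3′ tag cannot tell host from donor transcripts, and one outside the deleted part would not check the knockout.

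The genes that chose the members are given as a description, with no test. Stab2, a scavenger receptor that binds hyaluronan, lies on chromosome 10 from 86841198 to 87008025 (mm10, minus strand) and stood at 1433 CPM (1387 to 1481). It was detected in 76.2% of members, and in 58.7% of 642 members thinned to 1000 UMIs each. T cells held it in 10.0%, or 3.66% after thinning, given here as the background share. Gpr182, a chemokine-scavenging receptor (chromosome 10, 127747276 to 127751732), stood at 682, Oit3, a secreted glycoprotein (chromosome 10, 59422958 to 59441778), at 274, and Clec4g, a C-type lectin also called LSECtin (chromosome 8, 3707064 to 3720651), at 641. The sum over these genes ran from 3 to 90 UMIs with a median of 8, and 1, 2, 3 or all 4 of them were detected in 46, 167, 224 and 218 cells.

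Kdr, the main VEGF receptor and a marker that the rule did not use, was present at 1016 CPM (977 to 1057) in 87.6% of members against 2.50% of T cells, and 98.8% of members held a UMI of Pecam1, Cdh5 or Ptprb, genes of the endothelial junction. Its level depended on how far a cell stood from the threshold. At a sum of 3, just inside, 72 cells had 372 CPM of Kdr and 70.8% of them a UMI, and at a sum of 2, just outside, 81 cells had 205 and 53.1%. In the 302 cells with a sum of 10 or more the level was 1288. Kdr and the general endothelial genes thus marked the members as endothelium. They do not tell sinusoids from all other endothelium, since Kdr was under 2-fold apart from the Rspo3-high endothelium described below. Within the members Kdr was lowest at the lower edge of the rule. Pecam1 was not, at 787 CPM at a sum of 3 and 629 at 10 or more.

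Beyond the rule genes, the members carried the transcription factors known from this endothelium. Maf, which with Gata4 controls the sinusoidal identity, was among the 20 highest levels at 1807 CPM in 96.0% of cells, as was the homeobox factor Meis2 at 1707 in 94.0%. Gata4 stood at 453 in 64.0%, and the venous factor Nr2f2 at 922 in 81.2%. T cells held Gata4 in 1.92% and Nr2f2 in 1.92%, but Maf in 40.2%, so Maf alone does not mark these cells. Others of the 20 highest levels were Ptprb, a phosphatase that restrains Tie2, at 3024, the selenium carrier Selenop at 2212, the fatty acid carrier Fabp4 at 1819, and Cemip2, a hyaluronidase of the cell surface, at 1488. In the rest of the library, which leaves out the other endothelial sets described below, Ptprb stood at 45.4 and Selenop at 117. Ptprb was under 2-fold apart from both of those endothelial sets, so it is not particular to the members.

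The members were not uniform: they differed in genes of larger vessels. Mecom, a transcription factor of arterial and endocardial endothelium, and Nrg1, a growth factor released by vessels, were used after the values were seen to divide them into 361 cells with no UMI of either, 105 with 1 or 2, and 189 with 3 or more, at median depths of 2517, 3041 and 4612 UMIs. Kdr, which the rule did not use, went from 1346 through 1527 to 473 CPM. The scavenger receptor Fcgr2b, which clears immune complexes, went from 919 through 999 to 331. Both were lowest in the cells with 3 or more. The rule gene Stab2, given as a description, went from 2261 through 1734 to 392, and deeper cells could meet the minimum of 3 UMIs at a lower level.

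**Figure D1:**
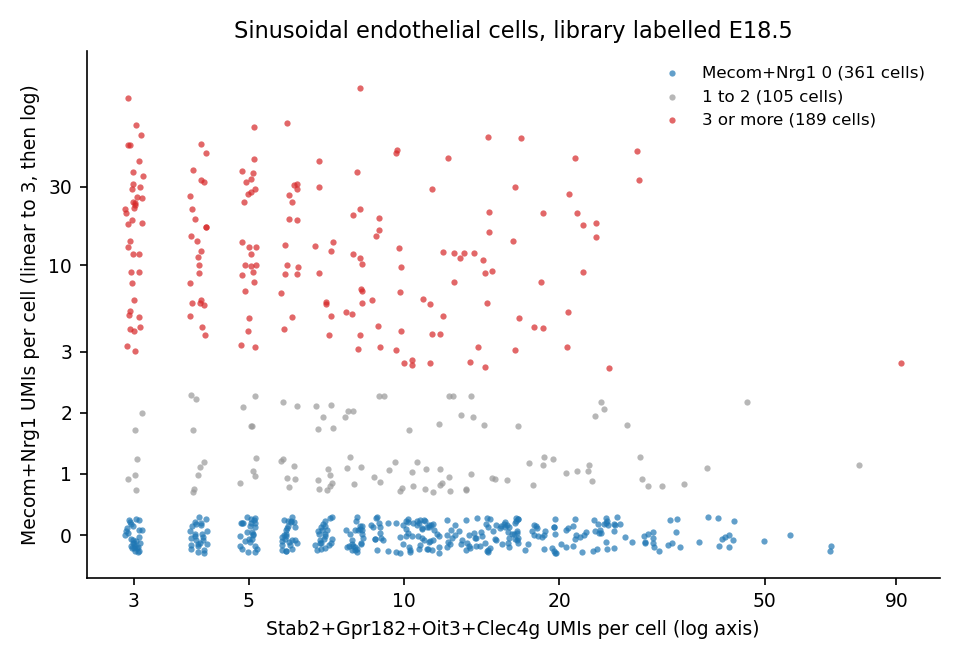
Each point is 1 of the 655 sinusoidal cells of the library labelled E18.5, placed by its summed UMIs of the 4 rule genes (log axis, from 3 to 90) and its summed UMIs of Mecom and Nrg1 (linear to 3, then log), with a small random shift. The 189 cells with 3 or more Mecom and Nrg1 UMIs (red) lie mostly at low rule gene sums, though the cell with the highest sum, 90, is 1 of them. The 361 with none (blue) run from 3 to 69.

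Most listed genes of larger vessels and of the portal side stood higher in the cells with 3 or more than in those with none. Any difference in level was counted, and the share over all genes was not taken. The counts are thus a description of groups cut on Mecom and Nrg1, themselves of the large vessel list. Among 21 large vessel genes other than Mecom and Nrg1 the level was higher there for 16. It was lower for 4 (Apln, Clu, Esm1 and Ackr1, with most Clu UMIs in few cells). Among 8 periportal genes it was higher for 7 and lower for Adam23, a cell adhesion protein, at 986, 1707 and 573 CPM. Adgrg6, an adhesion G protein-coupled receptor, stood at 31.1, 231 and 1129 CPM, the Notch ligand Jag1 at 36.3, 86.0 and 475, and the lymphangiogenic ligand Vegfc at 86.5, 290.5 and 718. Von Willebrand factor, Vwf, stood at 14.7, 62.2 and 515, and the arterial connexin Gja5 at 0, 11.9 and 183. In each of these the cells with 3 or more were highest. Plvap, which forms the diaphragms that sinusoidal pores lack, stood at 142, 243 and 567. Cdh5, the cadherin of all endothelium, differed little, at 487, 584 and 659. Markers of other cell types moved with the groups. In the same order bile duct markers summed to 1282, 44.5 and 31.5 CPM, hepatocyte markers to 820.0, 415 and 278, T and NK cell markers to 178, 8.89 and 5.90, macrophage markers to 153, 91.9 and 23.6, and B cell markers to 308, 349.8 and 173. Some of these sums rest on few cells: 8 members held 3 or more bile duct UMIs and 2 held 3 or more T and NK cell UMIs. Of the 87 members with 3 or more leukocyte UMIs 48.3% had 3 or more of Mecom and Nrg1, against 25.9% of the others. Mitochondrial UMIs were a median of 15.9%, 14.3% and 8.75% per cell. The part of depth, RNA quality or other cells' RNA in these differences was not tested.

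**Figure D2:**
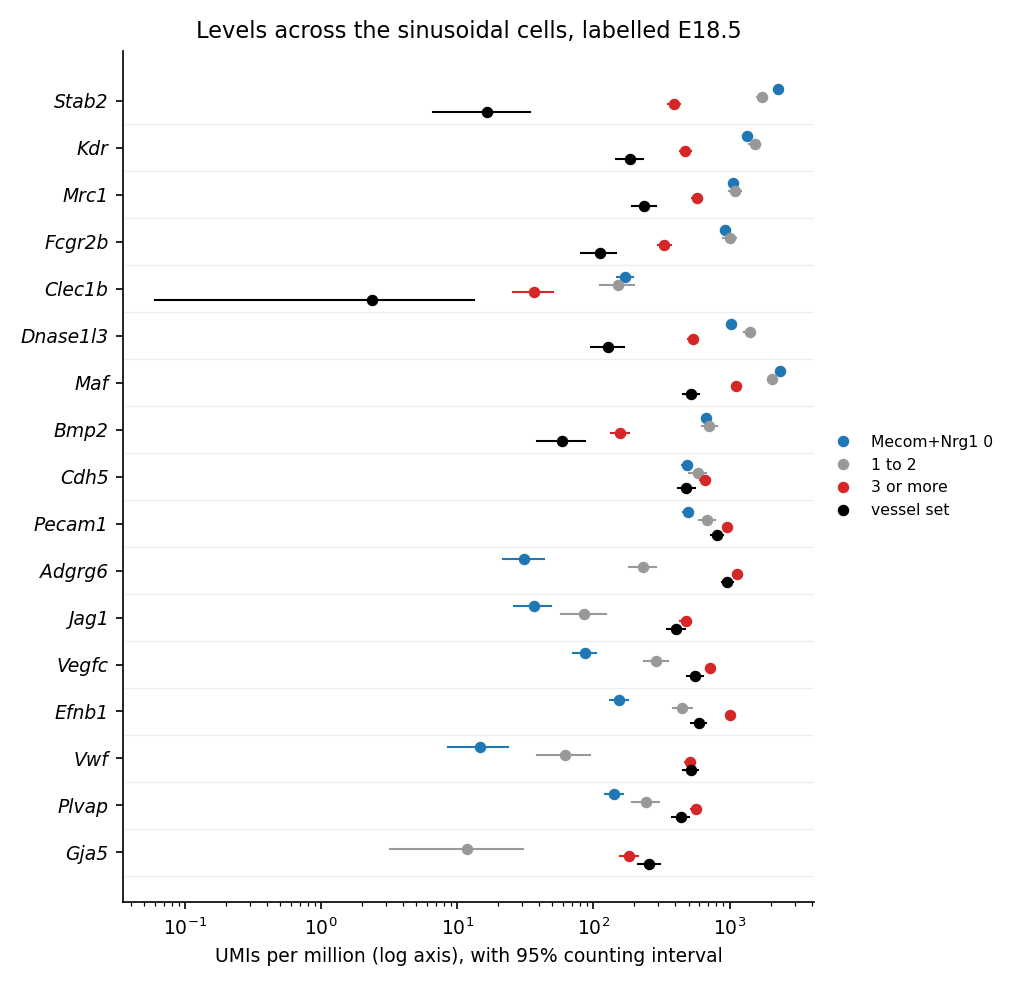
CPM (log axis) with 95% counting intervals for 17 genes in sinusoidal cells with 0, 1 to 2, and 3 or more UMIs of Mecom and Nrg1, and in the vessel endothelium set of 93 cells below the sinusoidal minimum. Stab2 goes from 2261 to 392 and Adgrg6 from 31.1 to 1129, and a set with 0 UMIs (Gja5 in the cells with no Mecom and Nrg1) has no point.

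Against the Rspo3-high endothelium of the same library (246 cells with at least 5 Rspo3 UMIs and at least 2 of Pecam1, Cdh5 and Ptprb, median 5381 UMIs), the members were rich in receptors of uptake and in portal genes. A gene was compared when either side held at least 50 UMIs and was counted when at least 2-fold apart. Of 7003 genes, 5.71% (400) were higher in the members and 4.56% (319) lower, with a median log2 ratio of 0.00. Rspo3, a gene of the pericentral list, split the sets, and only the members had to hold at least 3 UMIs of the rule genes. The Rspo3 limit kept 145 barcodes that had reached this sum out of the members. These ratios thus describe the rule's boundary and carry no test. The part of these choices in the receptor and portal differences was not tested. Of 9 scavenger and lectin receptors, 6 were higher and 0 lower, with a median of 2.12. Lyve1, a hyaluronan receptor of sinusoids and lymphatics, was 272 CPM against 6.55 (log2 5.38, 4.45 to 6.51). The fatty acid receptor Cd36 was 897 against 87.3 (3.36), and the mannose receptor Mrc1 869 against 200.1 (2.12). Stab1 did not differ by 2-fold, at 564 against 592. The junction claudin Cldn5 was 256 against 11.6.

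All 8 genes of the periportal list were at least 2-fold higher in the members, with a median of 3.30, and 6 of 7 pericentral genes lower, with a median of -2.16, 1 of the 7 being Rspo3 itself. The Notch ligand Dll4 stood at 139 CPM against 2.91 (5.57, 4.20 to 7.46), and ephrin B2, Efnb2, at 261 against 17.5 (3.90). Msr1, a scavenger receptor of the portal side, was 548 against 10.9 (5.65). Pericentral genes were not absent from the members. Wnt2, a ligand for hepatocytes near the central vein, stood at 59.7 against 371 (-2.64), while Wnt9b, another such ligand, was 1.59 (4 UMIs) against 184 and was compared through the UMIs of the Rspo3-high cells alone. Kit, the stem cell factor receptor, was 110.3 against 196 (-0.83), the 1 gene of the list under 2-fold.

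**Figure D3:**
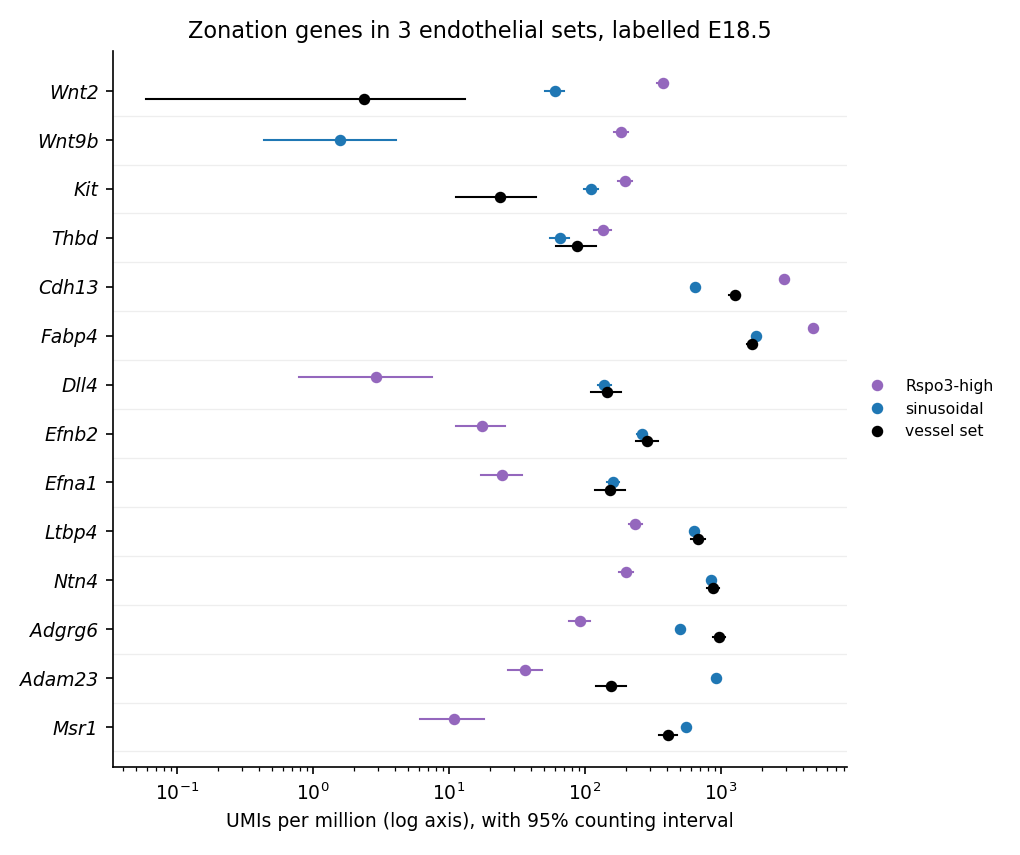
CPM (log axis) with 95% counting intervals for 6 pericentral genes (Wnt2 to Fabp4) and 8 periportal genes in Rspo3-high endothelium, sinusoidal cells and the vessel set, library labelled E18.5. Dll4 stands at 2.91, 139 and 144 and Wnt2 at 371, 59.7 and 2.36, and a set with 0 UMIs (Wnt9b in the vessel set) has no point.

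Within the members, any UMI of a zone list was too common to divide the cells. A UMI of Dll4, Efnb2, Ltbp4, Msr1, Ntn4 or Adgrg6, on the portal side, was found in 88.5% of all members. It was found in 87.7% of members with a UMI of Wnt2, Wnt9b, Kit, Thbd or Cdh13 and in 89.96% of those without. Median depths were 3512 and 2455 UMIs, so these shares cannot tell whether the zones are apart. Both kinds were held by 356 of 655. Single genes differed more. Kit was detected in 55.0% of the 100 members with Wnt2 and in 16.4% of the others, at similar median depths of 2963 and 3101 UMIs. Dll4 was detected in 15.0% of members with Wnt2 and 38.7% of the others. Efnb2 was detected in 25.3% of members with Kit and 50.1% of those without, at medians of 3206 and 3072 UMIs, and in 61.3% of members with Dll4 and 35.5% without, where the depths differed more (3921 and 2899). The 43 members with 1 to 4 Rspo3 UMIs held more of the pericentral genes Kit and Wnt2, and the list as a whole was not counted. Kit stood at 90.5 CPM in 612 cells with none, 413 in 29 with 1 and 459.8 in 14 with 2 to 4. Wnt2 stood at 48.7, 272 and 167. Lyve1, which the rule did not use, stood at 251 in the 14 cells against 6.55 in Rspo3-high endothelium, where no minimum of rule genes was asked. Those 14 cells held 47844 UMIs in all, 10725 of them in 1 cell, and 3 UMIs make 62.7 CPM there. Their levels thus rest on few UMIs.

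Among ligands, Bmp2 and Bmp6, the iron-regulating signals, were higher in the members than in Rspo3-high endothelium, at 467 against 179 CPM (1.38) and 229 against 69.9 (1.72). Hgf, a mitogen for hepatocytes, was 113 against 24.0 (2.24), and Angpt2, an antagonist of Tie2, 34.3 against 0.728. Bmp4 and Edn1, the precursor of endothelin, were lower, at 6.37 against 394 (-5.95) and 86.8 against 384 (-2.14). Over the 19 ligands compared, 10 were higher and 6 lower, Bmp4 and Wnt9b through the UMIs of the Rspo3-high cells alone and Rspo3 because it chose the sets. Of 13 genes of adhesion and immune signalling 1 was higher, Cxcl9, and 6 lower, P-selectin (Selp) most, at 36.6 against 709.5 (-4.28). Outside the lists the most unequal genes were Igfbp5, an IGF-binding protein, at 119 against 0.728 (1 UMI; log2 7.35, 4.86 to 12.66), and Npr3, the clearance receptor for natriuretic peptides, at 103 against 0.728 (7.14). Cyp1b1, a cytochrome P450, was lowest at 0.797 (2 UMIs) against 191 (-7.90), followed among genes outside the lists by Ncam1, an adhesion molecule, at 1.19 (3 UMIs) against 191 (-7.32).

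The second comparison within the library was with 93 cells of vessel endothelium, which had at least 3 UMIs of Mecom and Nrg1 but fell below the sinusoidal minimum (median 3135 UMIs). Of 6901 genes, 7.45% (514) were higher in the members and 3.48% (240) lower, with a median of 0.04. The rule genes set this boundary as well. Among genes that the rule did not use, Kdr stood at 1016 against 184 CPM (2.46, 2.14 to 2.81). The lymphatic and sinusoidal VEGF receptor Flt4 was 322 against 82.7 (1.96), the co-receptor Nrp2 399 against 94.5 (2.08), and 6 of 26 vascular receptor genes were higher and 0 lower. Clec1b, the receptor for podoplanin, was 114 against 2.36 (1 UMI; 5.59, 3.10 to 10.90). Lysosomal Ctsl was 712 against 137 (2.38) and the secreted nuclease Dnase1l3 879.8 against 128 (2.79). Bmp2 was 467 against 59.1 (2.98).

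Of 17 large vessel genes 6 were lower in the members than in the vessel set and 2 higher, with a median of -0.49. Mecom and Nrg1, which chose the vessel set, are 2 of the 6. Gja5 was 75.7 against 258 (-1.77) and Cd34 33.9 against 147 (-2.11), while Esm1, a secreted proteoglycan of tip cells, was 112 against 11.8 (3.25). The periportal list did not separate the sets, with 1 of 8 higher, 0 lower and a median of -0.05: Dll4 was 139 against 144. The exception was Adam23, at 916 against 156 (2.55). Of 5 proliferation genes 4 were lower (1 compared through the vessel cells' UMIs alone), led by Stmn1, a microtubule regulator, at 25.1 against 333. Few cells held it, with a UMI in 4.12% of members and 9.68% of vessel cells. Hmgb2, another of the 4, was 119 against 506 CPM, yet more members (23.1%) than vessel cells (14.0%) held a UMI. These levels do not show that more vessel cells divide. Outside the lists Aass, an enzyme of lysine breakdown, was 202 against 11.8 (4.09) and Col8a1, a short-chain collagen, 79.7 against 364 (-2.19).

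Between libraries, the sinusoidal cells labelled E18.5 held more of the antigen presentation, large vessel, immediate early and heat shock genes and less of the fetal and imprinted genes than those labelled P180. Of 6960 genes with at least 50 UMIs on either side, 14.7% (1020) were at least 2-fold higher and 4.63% (322) at least 2-fold lower, with a median log2 ratio of 0.20. In cells under 5% haemoglobin UMIs, 11.3% (771 of 6840) were higher and 4.43% (303) lower, with a median of -0.01. Of the 1020 higher genes 671 were also counted there, and of the 322 lower genes 140. Since the members held more UMIs, 4985 genes were compared through the members' UMIs alone. The 65 genes compared through the P180-labelled cells' UMIs alone had to be lower, and 65 of 65 were.

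**Figure D4:**
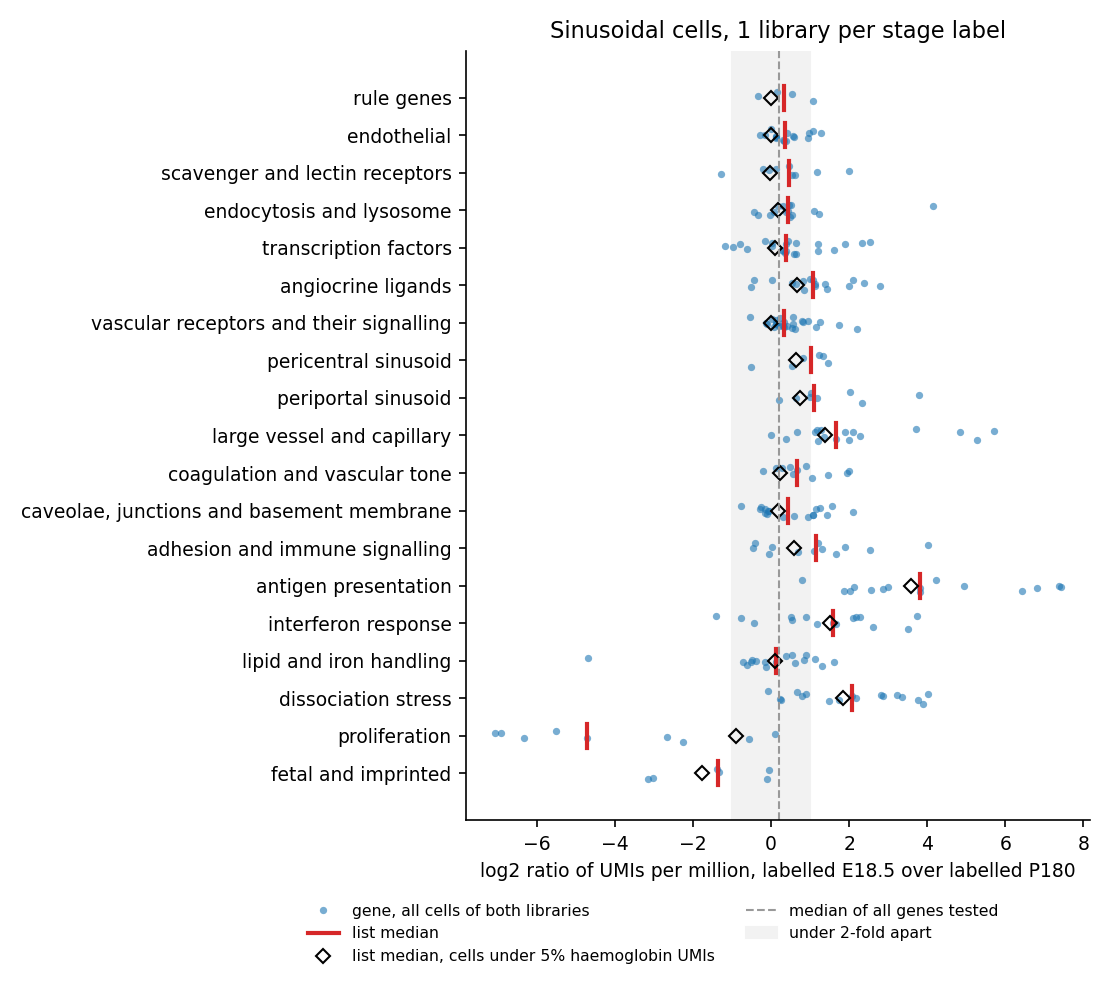
Each point is the log2 ratio of 1 gene, sinusoidal cells labelled E18.5 over labelled P180, by list, with the list median as a red bar and, as an open diamond, the median in cells under 5% haemoglobin UMIs. The antigen presentation median is 3.81 and the proliferation median -4.71, which moves to -0.90 without the cells of 5% or more, and the dashed line is the median of all genes, 0.20.

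The rule genes are given as a description, since the same minimum over them chose both sets. Stab2 was 1433 against 1811 CPM (-0.34, -0.44 to -0.23), and Clec4g 641 against 305 (1.07), the 1 of 4 rule genes past 2-fold, at 0.88 in cells under 5% haemoglobin. Of 16 endothelial genes 2 were higher and 0 lower, with a median of 0.36, or 1 with a median of 0.00 in cells under 5%. Kdr was 1016 against 805 (0.34). Of 9 scavenger and lectin receptors 2 were higher and 1 lower, and 1 and 1 under 5% haemoglobin. Fcgr2b was 691 against 172 (2.01, 1.69 to 2.33), with a UMI in 75.1% against 35.6% of cells. Lyve1 was lower, at 272 against 661 (-1.28, -1.47 to -1.09), with a UMI in 32.7% against 70.1% of cells, and it stayed lower under 5% haemoglobin (-1.36). Stab1 (-0.22) and Mrc1 (-0.05) were under 2-fold apart. Msr1 was 1.18 in all cells and 0.83 under 5%, so its count ended there.

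Of 15 genes of endocytosis and the lysosome 3 were higher and 0 lower, with 2 higher under 5% haemoglobin and 1 without the highest doublet scores. Dnase1l3 was 879.8 against 409.6 (1.10, and 0.89 under 5% haemoglobin). Dab2, an adaptor of clathrin-coated uptake, was 579.9 against 596 (-0.04), and clathrin itself, Cltc, 336 against 425 (-0.34). The lysosomal protease genes Ctsl (0.17) and Lgmn (0.07) also lay near 0.

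Of 22 transcription factors 6 were higher and 1 lower, with a median of 0.37, and 3 and 1 without the highest doublet scores. The flow-responsive factors Klf2 and Klf4 were 644 against 172 (1.90, 1.59 to 2.23) and 126 against 21.8 (2.53). Gata2 was 48.2 against 15.8 (1.61). Maf (0.64), Gata4 (0.42) and the general endothelial factors Erg (0.03) and Fli1 (0.02) were under 2-fold apart. Lmo2, which endothelial and red cell precursors share, was the lower one at 79.7 against 182 (-1.19), and 0.03 under 5% haemoglobin.

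Of 17 angiocrine ligands compared, 10 were higher and 0 lower, with a median of 1.08, and 6 with a median of 0.65 under 5% haemoglobin. Jag1 was 221 against 31.7 CPM (2.80, 2.09 to 3.62), Efnb1, a B-type ephrin, 542 against 105 (2.37) and Vegfc 369.6 against 87.1 (2.09). These are genes of the cells rich in Mecom and Nrg1, which were 28.9% of the members and 9.20% of the cells labelled P180. In cells with under 3 UMIs of both, the log2 ratios of Jag1 and Vegfc were 2.78 and 2.26. Bmp2 was 467 against 214 (1.13, and 0.68 under 5% haemoglobin) and Bmp6 229 against 129 (0.83). Wnt2 (0.83, 0.10 to 1.65), Dll4 (0.64) and Hgf (-0.45) were under 2-fold apart. Igf1, below the minimum for a count, stood at 4.78 against 55.4.

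Of 26 vascular receptors and genes of their signalling 4 were higher and 0 lower, with a median of 0.34, and 2 with a median of -0.01 under 5% haemoglobin. Hes1, a target of Notch, was 299 against 65.3 (2.19, 1.69 to 2.74), S1pr1, the sphingosine phosphate receptor, 170.5 against 51.5 (1.73) and Il6st, the shared receptor of IL-6 family cytokines, 1016 against 425 (1.26, and 0.84 under 5%). Flt1 (0.12), Flt4 (-0.10), Nrp2 (0.07) and Tek, which encodes Tie2 (0.31), lay near 0.

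Both zone lists leaned the same way: 3 of 6 pericentral and 6 of 8 periportal genes were higher and none lower, with medians of 1.02 and 1.11. Under 5% haemoglobin 1 of 6 and 3 of 8 were higher, with medians of 0.63 and 0.74. Ltbp4, a binding protein of latent TGF-beta, was 633 against 45.5 CPM (3.80, 3.21 to 4.46), in 68.4% against 11.5% of cells, and 4.17 in cells with few Mecom and Nrg1 UMIs. Ntn4, a basement membrane netrin, was 848 against 168 (2.33). Kit was 110.3 against 47.5 (1.22), and 0.68 under 5% haemoglobin. Adam23 was under 2-fold apart (0.20).

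Of 17 large vessel and capillary genes 14 were higher and 0 lower, with a median of 1.67, and 10 with a median of 1.39 under 5% haemoglobin. In cells with under 3 Mecom and Nrg1 UMIs 7 of the 10 that could be compared were higher. Ly6a, a cell surface protein of many vessels and of leukocytes, was 761 against 19.8 (5.26, 4.38 to 6.33), with a UMI in 48.9% against 8.05% of cells. It was also present in 45.0% of T cells, and the log2 ratio was 4.96 in cells with under 3 leukocyte UMIs. Esm1 was 112 against 3.96 (4.83, 2.96 to 7.88), Gja4 144 against 29.7 (2.28) and Plvap 328 against 77.2 (2.09). Clu was 309 against 5.94, but 89.6% of its UMIs in the members came from 10 cells. Vwf (0.65) and Sox17, an arterial factor (0.37), were under 2-fold apart.

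Of 18 genes of caveolae, junctions and basement membrane 7 were higher and 0 lower, with a median of 0.44. Under 5% haemoglobin 3 were higher (median 0.19), without the highest doublet scores 3 were higher and 1 lower (-0.14), and with no Rspo3 limit 2 were higher and 1 lower. Jam2, a junction adhesion molecule, was 436 against 148 CPM (1.56) and Cavin2, of the caveolar coat, 788 against 378 (1.06). The basement membrane genes Col4a1 (-0.15), Hspg2 (-0.11) and Nid1 (-0.05) lay near 0. Sparc, a matrix glycoprotein, was 647 against 1114 (-0.78), the lowest of the list, and past 2-fold without the highest doublet scores (-1.13) and with no Rspo3 limit (-1.13).

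Antigen presentation had the highest median of the lists between libraries. Of 15 antigen presentation genes 14 were higher and 0 lower, with a median of 3.81, and 15 of 15 under 5% haemoglobin with a median of 3.58. H2-K1, a class I heavy chain, was 1398 against 98.9 CPM (3.82, 3.42 to 4.25), with a UMI in 92.1% against 34.5% of cells. H2-D1 was 665 against 47.5 (3.81) and B2m, the class I light chain, 1551 against 265 (2.55). H2-Q7 was 181 against 0 UMIs, at least 30.5-fold higher when the empty side is set to 3 UMIs over the group. The peptide transporter genes Tap1 (2.12) and Tap2 (2.01) and the immunoproteasome genes Psmb8 (2.86) and Psmb9 (4.22) were higher with them. T cells express class I genes themselves (99.4% held H2-K1), so their share is no measure of free RNA here. In the 568 members with under 3 leukocyte UMIs H2-K1 stood at 1382 and B2m at 1394, against 1448 and 2060.1 in the other 87, and 14 of 14 genes were higher there with a median of 3.04. The rest of the library labelled P180 held H2-K1 at 72.9, and the rest of that labelled E18.5 at 1414.

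**Figure D5:**
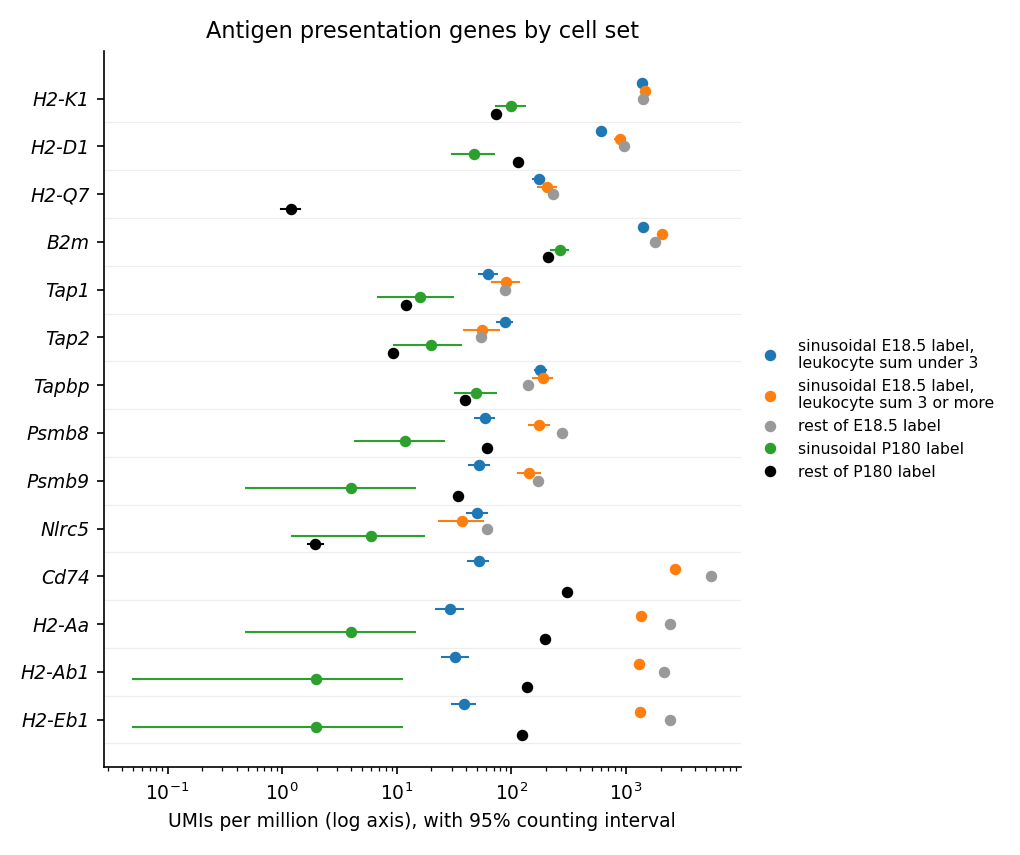
CPM (log axis) with 95% counting intervals for 14 antigen presentation genes in the sinusoidal cells labelled E18.5, divided by their leukocyte UMIs, in those labelled P180 and in the rest of each library. H2-K1 is 1382 and 1448 in the divided cells against 98.9 labelled P180, Cd74 is 51.6 and 2672, and a set with 0 UMIs (H2-Q7 and Cd74 in the sinusoidal cells labelled P180) has no point.

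The class II genes differed as much in total but not in most cells. Cd74, the invariant chain, was 669 CPM against 0 UMIs (at least 113-fold), yet 94.5% of its UMIs came from 10 cells. It stood at 51.6 in members with under 3 leukocyte UMIs and 2672 in the others. H2-Ab1 was 329 against 1.98 (1 UMI; 7.38, 4.90 to 12.68), with 93.3% of UMIs in 10 cells, and H2-Aa 341 against 3.96 (2 UMIs), with 94.2%.

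Of 15 interferon response genes 9 were higher and 1 lower, with a median of 1.59, and 12 and 0 under 5% haemoglobin. The guanylate-binding GTPase Gbp4 was 72.1 against 11.9 CPM (2.60, 1.45 to 4.07), the immunity-related GTPase Iigp1 203 against 41.6 (2.29) and Ifi203 195 against 45.5 (2.10). The direction of 3 genes changed without the haemoglobin-rich cells. The antiviral genes Rsad2 and Isg15 and Usp18, which removes ISG15 from proteins, were -1.41, -0.77 and -0.45 in all cells and 1.59, 2.23 and 1.15 under 5%. Among 12 adhesion and immune genes 7 were higher and 0 lower, with a median of 1.15. Under 5% haemoglobin and without the highest doublet scores 4 were higher, with medians of 0.58 and 0.73. Cxcl9, a chemokine for T cells, was 96.4 in 15.0% of members against 0 UMIs (at least 16.2-fold), with 48.8% of its UMIs in 10 cells. Tnfsf10, the death ligand TRAIL, was 126 against 21.8 (2.53), and Vcam1, an adhesion molecule for leukocytes, 170.5 against 53.4 (1.67). Icam2 (-0.41) and Tlr4 (-0.06) were under 2-fold apart.

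Of 17 immediate early and heat shock genes, which tissue dissociation is known to induce, 11 were higher and 0 lower, with a median of 2.07. Fos was 466 against 31.7 CPM (3.88, 3.17 to 4.69), and Hspa1b, a heat shock protein, 349 against 37.6 (3.22). Few cells held most of it: 54.8% of the Fos UMIs and 60.7% of the Jun UMIs came from 10 members. T cells held Fos in 69.0% and Hspa1b in 69.4%. The part of dissociation in any other difference was not tested.

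Dividing cells were rare among the members. Mki67, present in cycling cells, stood at 3.98 CPM (10 UMIs) in 0.916% of cells against 479 in 23.0% (-6.91, -7.99 to -6.01). Of 9 proliferation genes compared 7 were lower and 0 higher, but 5 of the 9 were compared through the P180-labelled cells alone and had to be lower. Within those cells Mki67 was 1146 in the 15 with 5% or more haemoglobin UMIs and 79.1 in the other 72, where the ratio was -4.41. Under 5% haemoglobin 2 of 4 genes were lower, with a median of -0.90. The iron importer Tfrc, high in red cell precursors, also had to be lower by the minimum, at 12.7 against 332 (-4.71) and -1.57 under 5%.

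The fetal and imprinted genes were also lower without those cells. Of 6 compared 4 were lower and 0 higher, with a median of -1.36, and 4 with a median of -1.76 under 5% haemoglobin. Mest, an imprinted hydrolase gene active in fetal tissue, was 109 against 889 CPM (-3.03, -3.25 to -2.81). It had a UMI in 22.9% against 88.5% of cells, and in 0.577% of T cells of the library labelled E18.5. Thinned to 1000 UMIs those shares were 8.88% and 59.3%. The growth restrainer Grb10 was 159 against 412 (-1.38), the decoy receptor Igf2r 27.5 against 69.3 (-1.33) and the non-coding RNA H19 33.5 against 297 (-3.15). H19 UMIs came to 94.0% from 10 members. Below the minimum for a count, the fetal RNA-binding gene Igf2bp3 stood at 1.19 against 79.2 and the chromatin gene Hmga2 at 0.797 against 55.4. How much other cells' RNA added to these levels was not tested. Cdkn1c (-0.10) and Plagl1 (-0.06) did not differ by 2-fold.

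The livers also differed in sex-linked RNA. Xist, the RNA of the inactive X chromosome, was 1608 CPM in 91.8% of members and 0 in the cells labelled P180, at least 271-fold. Y-linked genes gave 1 UMI in 1 member and were detected in 57 of the 87 cells labelled P180, so the stage label and sex cannot be told apart. Outside the lists the highest ratios were Fbln2, a fibulin of elastic matrix, at 173 against 1.98 (1 UMI; 6.45, 3.97 to 11.76), and Csmd1, a membrane protein with complement domains, at 291 in 31.8% of members against 3.96 (2 UMIs; 6.20). Csmd1 was also 80.0-fold above Rspo3-high endothelium and 10.3-fold above the vessel set. The lowest were the stefin genes Cstdc5, at 0.398 (1 UMI) against 710 (-10.80), and Stfa1, at 0 against 1013 CPM (at least 848-fold lower). The rest of the library labelled P180 held Cstdc5 at 8216 and Stfa1 at 9604, and neutrophil markers summed to 7464 in its sinusoidal cells against 624 in the members, with 3 or more such UMIs in 70 of 87 cells. These genes were compared through the UMIs of the cells labelled P180 alone and had to be lower, and the part of neutrophil RNA in their ratios was not tested.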

How the data were processed

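Dissociated liver cells were sequenced with 10x Genomics 3′ v3 chemistry, per the labels' protocols. The authors deposited raw UMI counts per gene and barcode. Per the file headers they were made by Cell Ranger 7.1.0, and the build was mm10 per the submitters' processing notes. The counts cover 32285 genes and were used without change. No source used here gives the authors' filter on barcodes. Members were chosen by the rule stated in the report. UMIs were summed over cells, scaled to all UMIs of the set and compared as log2 ratios with exact conditional Poisson 95% intervals. A count of 0 was set to 3 UMIs over the group, which gives the folds written with "at least". They are bounds under that setting only, and the exact 95% interval can reach nearer to no difference. Genes with at least 50 UMIs on either side were compared and counted at 2-fold. Shares were also taken after thinning cells to 1000 and 2000 UMIs. No doublet caller was applied to the members; leaving out barcodes with the highest Scrublet scores (scanpy 1.11.5) was an alternative.

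Named genes were those of the lists, the 8 highest and 8 lowest ratios of each comparison among genes with at least 200 UMIs, and the 20 highest levels. Mecom and Nrg1 ranges, leukocyte sums and the 5% haemoglobin limit were chosen after seeing the data. The members and lists were chosen with earlier results of these data known. Gene positions are from GENCODE for mm10. Promoters of Stab2, Clec4g, Kdr and Hhex were in the RefSeq table, and those of Gpr182 and Oit3 were not matched. The scripts, in Python 3.11.15 with numpy 2.4.6, scipy 1.17.1 and pandas 2.3.3, were tested on simulated data.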

Additional observations from a re-analysis of the deposited data

How the results depend on the processing

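The number of sinusoidal cells was 215 with a mitochondrial limit of 10% and 1151 with none, against 655. The counts of genes higher and lower against the library labelled P180, 1020 and 322, became 358 and 66 with a minimum of 200 UMIs, 1586 and 623 with 20 UMIs, and 347 and 130 at 4-fold. Under the other settings tried they ran from 685 to 1109 and from 218 to 393. Scaling outside mitochondrial and haemoglobin genes gave 841 and 393, so 68.2% rather than 76.0% of the genes counted were higher, and moved the median of all genes from 0.20 to 0.06. Without the highest doublet scores the counts were 685 and 293 with a median of 0.00, 24 and 15 members being left out. Of 318 genes of the lists, the extremes and the highest levels, 170 were past 2-fold between libraries and 12 of these changed sign under at least 1 setting, with the cause not tested. Rsad2 was 1.59 under 5% haemoglobin and 0.68 without the highest doublet scores, and Lmo2 0.033 under 5% haemoglobin. With under 3 UMIs of Mecom and Nrg1, Gja5 went from 1.17 to -1.37, Ednrb from 1.04 to -1.59, Ace from 1.94 to -0.20 and Sdc1 from 4.20 to -0.05. Nrg1 went from 3.71 to -0.79, but that setting removes cells by their Nrg1 UMIs, so its change is no result. Fn1 went from 1.07 to -0.76 and Dcn from 1.96 to -3.16 with no Rspo3 limit, Reln from -1.89 to 2.94 under 5% haemoglobin, Retnlg from 2.66 to -0.99 with under 3 leukocyte UMIs, and Sox9 from 2.10 to -0.85 with a minimum of 5 rule gene UMIs. Against Rspo3-high endothelium the counts ran from 333 to 424 higher and 278 to 319 lower, and against vessel endothelium from 514 to 567 and 182 to 240. No paired analysis was possible because each stage label has 1 library. A count of 0 in the 87 cells labelled P180 was set to 3 UMIs, or 5.94 CPM, and with 1 library per label no spread between animals could be measured.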

Other observations

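Genes of clotting and vascular tone were compared with the Rspo3-high endothelium of the same library: of 11, 0 were higher and 5 at least 2-fold lower, with a median log2 ratio of -0.25, against 4.56% lower among all genes compared. Entpd1, which degrades extracellular ATP, stood at 67.3 CPM against 549 (-3.03, -3.28 to -2.78), Vwf at 224 against 1241 (-2.47) and Ptgs1, a cyclooxygenase, at 99.2 against 397 (-2.00). F8, which encodes clotting factor VIII, was 942 against 1099 (-0.22), with a UMI in 87.3% of the sinusoidal cells. The endothelin receptor gene Ednrb stood at 19.9, 97.8 and 619 CPM in cells with 0, 1 to 2, and 3 or more UMIs of Mecom and Nrg1.

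Genes of lipid and iron handling lay near the median of all genes between libraries: of 17 compared, 3 were higher and 1 lower, with a median of 0.13 beside 0.20 for all genes. Gpihbp1, which holds lipoprotein lipase on the capillary wall, was 809 CPM against 267 (1.60, 1.35 to 1.86), and the water channel Aqp1 1198 against 487 (1.30). Fabp4 was 1819 against 1266 (0.52), and the iron exporter Slc40a1 118 against 63.3 (0.90). Of 9 p53 pathway genes 3 were higher and 0 lower, with a median of 0.10. In cells under 5% haemoglobin UMIs 1 was higher and the median was -0.25. With those cells kept, the median was -0.18 with a minimum of 5 rule gene UMIs and -0.08 with under 3 leukocyte UMIs. It was -0.04 when scaled outside mitochondrial and haemoglobin genes, so this median lay near 0 and its sign changed with the setting. Cdkn1a, the cell cycle inhibitor that p53 induces, was 21.9 against 17.8 (0.30), and Mdm2, its negative regulator, 74.1 against 69.3 (0.10).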
